A study of Rattus norvegicus with 56 samples.

Results

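The 10 genes described here belong to the endoplasmic reticulum (ER) stress response and the integrated stress response: Atf4, Ddit3, Trib3, Chac1, Asns, Sesn2, Hspa5, Hsp90b1, Xbp1 and Herpud1. They were taken by name, as the probe whose RefSeq record belongs to the gene and, had there been several, the brightest one. All 10 were found, out of 13884 genes with a named and tested probe. Each had 1 probe with such a RefSeq record on the array, and that probe was well above background on all 55 arrays used. The RNA came from primary hippocampal neurons of E18 Sprague-Dawley rats, grown in Neurobasal medium with B27, and was measured on Agilent 1-colour arrays. Dishes on an inverted coil had received 1 Hz repetitive transcranial magnetic stimulation (rTMS) or intermittent theta burst stimulation (iTBS), with the stimulator set to 15% of its output. Sham dishes stood in an incubator with the coil far from them. RNA was taken at once (0 h) or 2, 8, 24 or 48 h later. A control group with no stimulation, labelled CTR, was taken at 0 h only. There were 17 sham, 16 1 Hz, 18 iTBS and 4 CTR arrays, in 16 groups of 2 to 4 arrays. A further array, 1 Hz at 2 h replicate 2, had a failed grid in its scan and was left out.

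Misfolded protein in the ER is sensed by PERK, IRE1 and ATF6. PERK, like the other eIF2 alpha kinases, slows general translation and favours translation of the transcription factor ATF4, which turns on genes of amino acid supply and, under lasting stress, the transcription factor CHOP (Ddit3). IRE1 splices the Xbp1 transcript, and XBP1 and ATF6 raise ER chaperones and the machinery of ER-associated degradation. In neurons the same ATF4 arm also responds to amino acid shortage, mitochondrial stress and loss of trophic support. The arrays measured transcript levels only, so neither the splicing of Xbp1 nor any protein or phosphorylation was measured.

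Promoter windows that hold a known response element of either arm are printed below. RefSeq (assembly GRCr8) gave the bases from 250 before to 50 after the start of all 10 genes. The ER stress response element, searched on both strands as CCAAT and CCACG with 9 bases of any kind between them, occurs in 0.0657% of 33469 rat promoter windows and was found in those of Hspa5, Xbp1 and, 2 times, Hsp90b1. The C/EBP-ATF response element TGATGNAA, which ATF4 dimers can bind, occurs in 3.98% of windows and was found in those of Trib3, Chac1 and Herpud1. Among other genes of the pathway with a window, the first was in 6 of 24 genes of ER folding and degradation and 0 of 37 ATF4 targets, and the second in 1 of 24 and 12 of 37. TGACGTCA, in 1.83% of windows, and TGACGTGG, in 0.595%, were in none of the members' windows. The letters of the search string other than N are in capitals below. For Trib3, Chac1 and Herpud1, and for the second site of Hsp90b1, they stand in the reverse complement.
Hspa5, chr3:38452933-38453031, plus strand: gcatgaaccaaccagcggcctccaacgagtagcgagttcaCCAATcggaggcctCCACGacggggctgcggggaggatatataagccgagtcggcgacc
Hsp90b1, chr7:23012307-23012509, minus strand: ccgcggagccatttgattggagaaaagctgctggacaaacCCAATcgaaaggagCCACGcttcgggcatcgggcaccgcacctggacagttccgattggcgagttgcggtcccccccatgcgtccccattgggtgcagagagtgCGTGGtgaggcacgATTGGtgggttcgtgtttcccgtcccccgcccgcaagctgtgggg
Xbp1, chr14:84604518-84604616, plus strand: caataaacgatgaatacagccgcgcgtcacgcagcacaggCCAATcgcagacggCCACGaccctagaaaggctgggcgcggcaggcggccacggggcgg
Trib3, chr3:161275507-161275594, minus strand: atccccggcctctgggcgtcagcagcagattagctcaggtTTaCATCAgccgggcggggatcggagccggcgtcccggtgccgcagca
Chac1, chr3:126795924-126796011, plus strand: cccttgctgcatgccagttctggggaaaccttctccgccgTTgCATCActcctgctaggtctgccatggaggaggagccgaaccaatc
Herpud1, chr19:10614844-10614931, minus strand: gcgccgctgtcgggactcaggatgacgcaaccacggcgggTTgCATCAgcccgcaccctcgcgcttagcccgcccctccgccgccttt
These matches describe letters and are not measured binding sites.

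Levels are given in scaled log2 units: each array's log2 signals were centred on their mean, divided by their SD and multiplied by the median SD over arrays, 4.06, so that 1 unit is close to a doubling of signal and 0 is the mean probe of an array. A level therefore orders the arrays for 1 gene and not the genes among themselves. Between 66.1% and 81.8% of an array's spots were well above background, the scanner marked none as saturated, and the 75th percentile of signal lay between 1896 and 18416. The samples carry a running number in their descriptions, and these numbers fall into 4 runs, called here number series A (1 to 18, 11 arrays), B (22 to 36, 12 arrays), C (37 to 54, 17 arrays) and D (D1 to D15, 15 arrays). The sources used here do not say what a run stands for, nor that the arrays of a group came from separate cultures, so p-values measure only the spread between these arrays. Series A was on slides 1 and 2, B on slides 3 and 4 and C on slides 5 to 7, with 2 or 3 arrays of series D on every slide. The 11 neuronal markers, among them Tubb3 and Map2, were well above background on all arrays, as were all 7 astrocyte and all 7 oligodendrocyte-lineage markers. Of 6 microglial markers, 2 were above background on every array.

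Neither rTMS protocol changed any of the 10 transcripts past the test at any time. Over 10 comparisons of a protocol with sham at the same time, 0 of 100 values passed an adjusted p of 0.05 (limma, moderated t), and 0 had an unadjusted p under 0.05. The background was as empty, with at most 2 of 35694 probes called in a comparison: 0% of them in 7 comparisons, 0.0028% in 1 Hz at 8 h (1 lower) and 0.0056% in 1 Hz at 2 h and in iTBS at 8 h, the latter 0.0028% higher and 0.0028% lower. The published selection rules of the study, run on the same scaled values, selected 0 members. They selected at most 13 of the 35694 probes in any comparison, so 0 members under these rules carries no weight. Of the 100 changes, 49 were upward, and they ran from -1.02 for Ddit3 to 0.53. In no comparison did the stimulated arrays of a member lie wholly above or below the sham arrays. Only 1.06% to 6.70% of all probes did so, so 0 of 10 members in a comparison does not set them apart.

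Several of the changes furthest from 0 rested on single arrays. Xbp1, the factor that IRE1 activates by splicing, stood at 3.23, 5.96, 5.36 and 5.93 on the 1 Hz arrays of 8 h, and at 5.87, 5.52 and 6.17 on the sham arrays of 8 h. One 1 Hz array, replicate 1 of series A, was far below all the others, and the remaining arrays overlapped. The change was -0.74 ± 0.37 (SE, unadjusted p = 0.051, limma) with this array and -0.10 without it and 1 other array. The other array, iTBS at 0 h replicate 4 of series D, read 3.36 for Ddit3 and 4.57 for Hsp90b1, an ER chaperone also known as GRP94. The 1 Hz array read 2.17 and 4.59 for these genes. Elsewhere the lowest levels of Ddit3 and Hsp90b1 were 4.50 and 5.81, so the same pair of arrays was lowest for both. For Xbp1 the 1 Hz array alone was the lowest, and for the remaining 7 genes neither array was. The change of Sesn2 with 1 Hz at 48 h, -0.73 ± 0.71 (SE, unadjusted p = 0.31, limma), involved neither of these arrays.

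Averaged over the 5 times, the changes were smaller still. For 1 Hz they ran from -0.13 for Xbp1 to 0.13 for Trib3, and for iTBS from -0.17 for Ddit3 to 0.09 for Atf4, with 0 members called. When each number series at each time was given its own level, the intervals narrowed, since arrays of the same series and time varied less. The 95% confidence intervals of the mean change then lay between -0.31 and 0.51 for 1 Hz and between -0.49 and 0.41 for iTBS, over all 10 genes. For 1 Hz, a change above 0.51 or below -0.31 units, averaged over times, lies outside all of these intervals. For iTBS the same holds above 0.41 or below -0.49. Changes between these limits lie inside at least 1 interval.

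**Figure D1:**
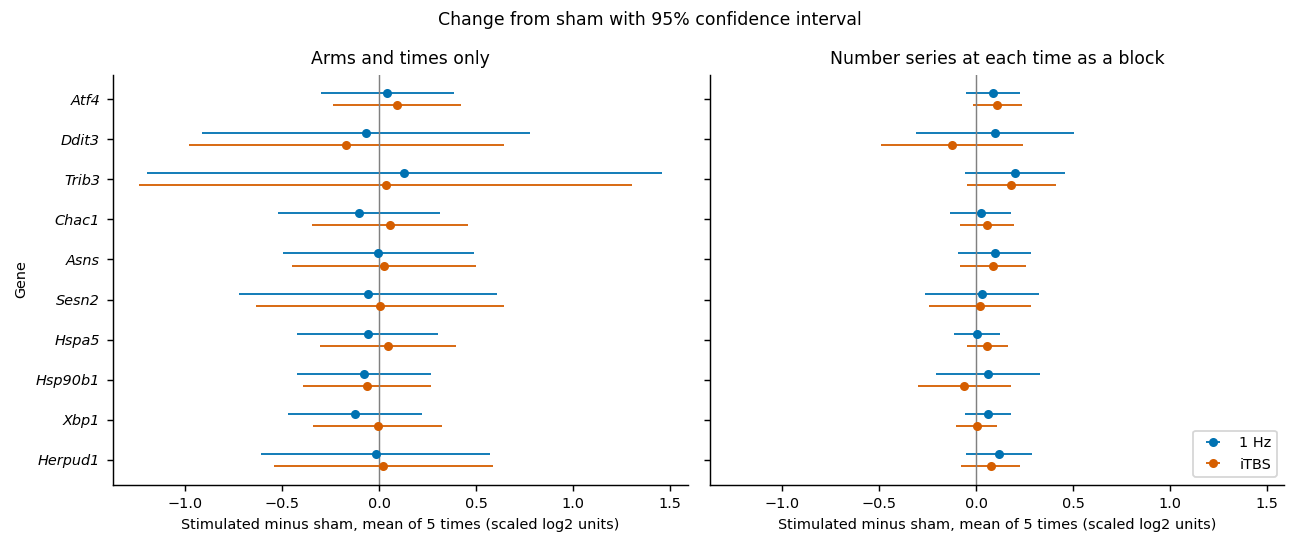
Change of each gene from sham, averaged over 5 times, for 1 Hz and iTBS, in scaled log2 units, with 95% confidence intervals from the fit on arms and times (left) and from the fit with number series at each time as a block (right). Every interval includes 0 in both fits, and the intervals on the right are narrower.

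In that same fit, no member was called at any single time. At 48 h 3 members had an unadjusted p under 0.05 (limma) with iTBS, against 8.56% of probes, and 4 with 1 Hz, against 14.4%. At 0 h 2 members did so with iTBS, against 16.2% of probes, where the lowest adjusted p of a member was 0.18 (limma). With 1 Hz at 0 h 1 member did, against 3.25%, and with iTBS at 2 h 1, against 11.4%. In the other comparisons 0 did. Trib3, a pseudokinase that ATF4 and CHOP induce and that restrains ATF4, read -0.49, 0.52, 2.68 and 4.31 on the iTBS arrays of 48 h and -1.39, 2.32 and 4.15 on the sham arrays. The groups overlapped over nearly their whole range. The change within series and time was 0.81 ± 0.26 (SE, unadjusted p = 0.0040, adjusted p = 0.56, limma). Asns, asparagine synthetase, changed by 0.59 (adjusted p = 0.57, limma) and Herpud1 by 0.50 (adjusted p = 0.57, limma) in the same comparison. All 3 values depended on the sham array of series A, which read -1.39 for Trib3, 4.32 for Asns and 4.70 for Herpud1, while the 1 Hz array of series A read 0.37, 5.74 and 5.99. Without that array the changes with iTBS were 0.23, 0.18 and 0.16, and at 48 h 0 members had an unadjusted p under 0.05 with either protocol. Over the 17 pairs of an iTBS and a sham array of the same series and time, the members were higher in 8 (Ddit3) to 12 (Chac1), with medians from -0.06 to 0.16. Over the 13 such pairs with 1 Hz they were higher in 5 (Atf4) to 10 (Chac1), with medians from -0.04 to 0.17. At 0 h Atf4 was higher in every pair, by 0.17 to 0.52 with iTBS and by 0.29 to 0.49 with 1 Hz. This was picked out after the values were seen, and Atf4 was not called there.

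The other comparisons between arms gave no call either. iTBS against 1 Hz, the difference between times in the change from sham, and CTR against sham at 0 h called 0 members, with 0 unadjusted p-values under 0.05 (limma). The background was 0.0028% of probes for CTR, 0.0028% (all higher) for iTBS against 1 Hz at 8 h, 0.0056% for the same at 2 h and 0% in the others. CTR was lower than sham by 1.41 units for Trib3 (SE 1.30, adjusted p = 1.00, limma). That estimate is uneven by design, since the 4 CTR arrays lie in series A and C only and 1 of the 4 sham arrays lies in series D. With series at each time as a block the difference was -0.54 (unadjusted p = 0.043, adjusted p = 0.68, limma).

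Few members differed between the times. Within the sham arm the F test over time called 0 members, with 0 at an unadjusted p under 0.05, against 0.0784% of probes. The F test over the 5 times in the 3 arms called 0 of 10 members against 8.16% of all probes, with Hsp90b1 nearest (adjusted p = 0.22, limma). Against 0 h, 0 members passed at 2 h (0% of probes), 8 h (0.219%) or 24 h (3.83%), where 0, 0 and 1 had an unadjusted p under 0.05 (limma). From 0 to 48 h Hsp90b1 changed by 0.60 ± 0.21 (SE, adjusted p = 0.050, limma), just past the threshold, where 10.8% of probes were called and 6.13% were called higher. The call was lost under 4 other scalings, without the filter on dim probes, and on leaving out any 1 of 39 of the 55 arrays. With number series as a block, 3 members were higher at 48 h, against 13.6% of probes: Ddit3 by 1.22 ± 0.32 (adjusted p = 0.0040, limma), Hspa5 by 0.40 ± 0.12 (adjusted p = 0.014, limma) and Hsp90b1 by 0.63 ± 0.19 (adjusted p = 0.0096, limma). Hspa5 encodes BiP, the main ER chaperone and a brake on the stress sensors. The value for Ddit3 was 0.88 without the pair of low arrays, and the 3 genes were still called. Atf4 (-0.18), Chac1 (-0.06) and Sesn2 (-0.49) did not pass the test.

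Behind these averages lay different courses in the 4 series, opposite in sign for some members. The test of series by time, added after the data had been seen, called 10 of 10 members, against 39.4% of all probes. From 0 to 48 h Trib3 changed by -1.70 units in series A and by -1.78 in B (mean of 2 arms each), and by 2.53 in C and 0.54 in D (mean of 3 arms each). Sesn2, which encodes a stress-induced inhibitor of mTORC1, changed by -1.47 in A, -1.26 in B, 0.66 in C and 0.33 in D. The mean changes of Ddit3 (0.38, 0.10, 1.49 and 2.62) and Hsp90b1 (0.09, 0.50, 0.65 and 1.03) were above 0 in all of A, B, C and D. For Hsp90b1 the arms of series D ran from 0.07 to 2.57, the largest starting from the low iTBS array of 0 h. Ddit3 was higher at 48 h in every arm of series C and D, by 1.39 to 1.67 in C and by 0.96 to 4.75 in D, the last starting from the low iTBS array. In series D its levels were 6.11, 6.31, 7.27, 8.04 and 8.28 on the sham arrays of 0, 2, 8, 24 and 48 h, higher at each later time. In series A, both arrays of 2 h were the highest of all for Chac1, which encodes a glutathione-degrading enzyme: 4.77 with sham and 4.39 with iTBS.

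**Figure D2:**
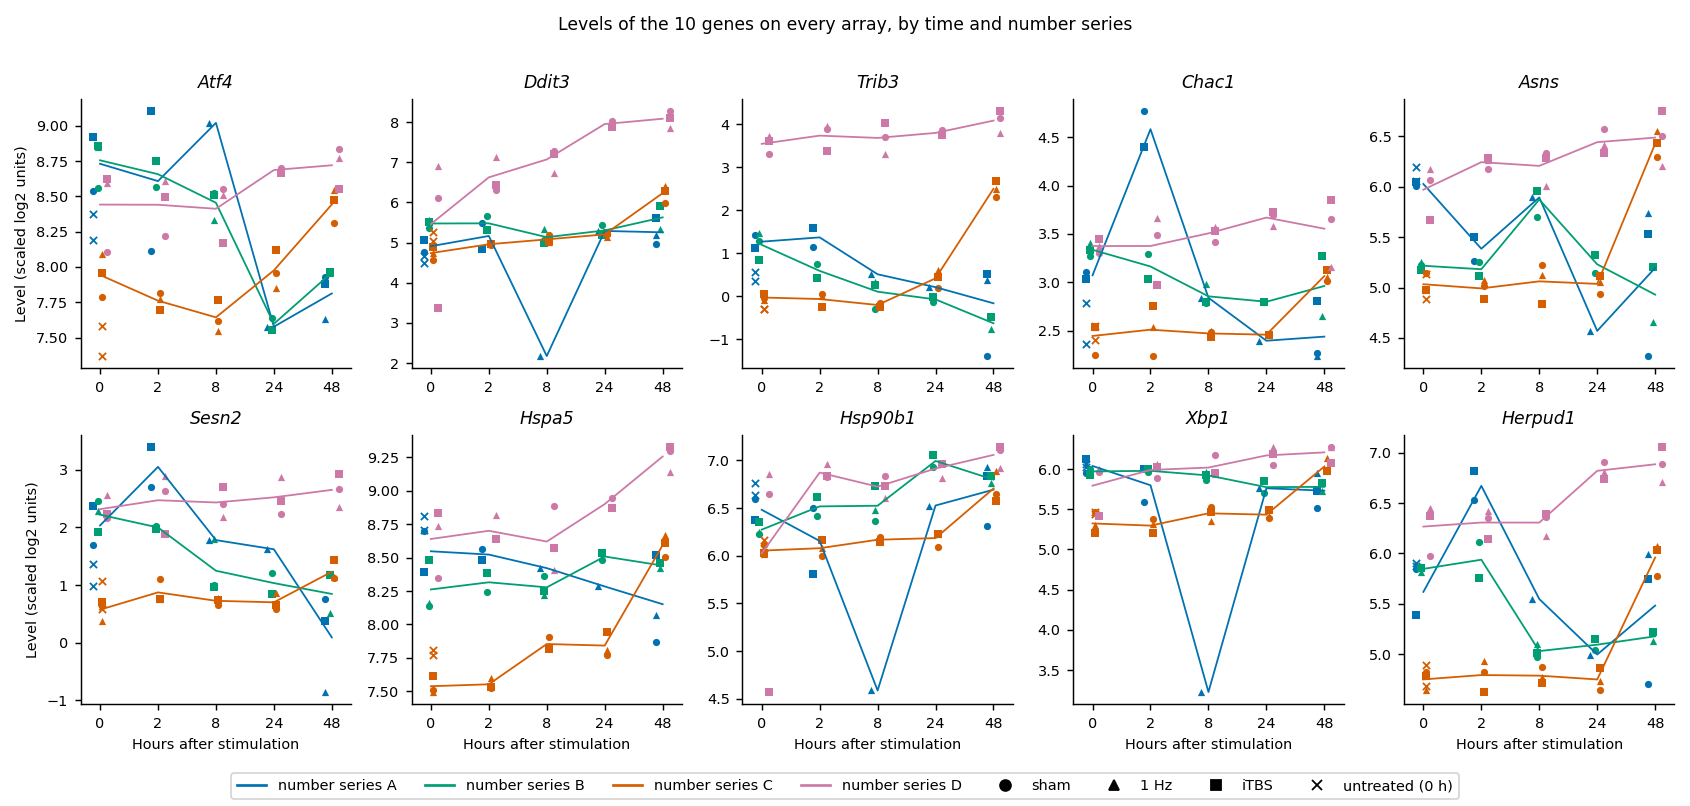
Level of each gene (scaled log2 units) on every array against hours after stimulation (time points evenly spaced), with number series as colours and arms as symbols, and lines through the mean of the stimulated and sham arrays of a series. Trib3 of series D lies at 3.30 or above on all 15 arrays, and all 10 genes of series C are higher at 48 h than at other times. The 1 Hz array of series A at 8 h is far below the rest for Xbp1. For Ddit3 and Hsp90b1 that array and the iTBS array of series D at 0 h lie below all others.

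The clearest of these courses was that of series C at 48 h. Its 3 arrays, 1 of each arm, were higher than all 14 other arrays of series C for 10 of 10 members, a pattern that holds for 6.56% of all probes and that was singled out after the values had been seen, so it carries no test. Trib3 stood at 2.32 (sham), 2.50 (1 Hz) and 2.68 (iTBS) at 48 h, against -0.31 to 0.61 on the other arrays of the series. Asns stood at 6.30, 6.55 and 6.43, against 4.84 to 5.22. Herpud1, an ER membrane protein of ER-associated degradation, stood at 5.77, 6.07 and 6.04, against 4.62 to 4.93. In each case the sham array stood with the stimulated ones, and a gap separated all 3 from the rest of the series. Ddit3 differed by 1.21 between the means, Hspa5 by 0.88, Atf4 by 0.66, Xbp1 by 0.65, Chac1 by 0.59, Hsp90b1 by 0.58 and Sesn2 by 0.50. In the other genes of the pathway the same held for 30 of 40 further ATF4 targets and for 16 of 28 genes of ER folding and degradation, but for 2 of 16 stress sensors and eIF2 factors. On the same arrays 3 of 7 oligodendrocyte-lineage markers lay wholly below the other arrays of series C, and 1 of 11 neuronal and 2 of 7 astrocyte markers lay wholly above. Their part in the pattern was not tested.

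For 9 of the 10 members, number series accounted for more of the spread than arm or time. For Hsp90b1 the share was 16.5% for series and 19.9% for time. Between series, the share of the variance was a median of 48.7% over the 10 members, against 28.5% over all probes, and it ran from 16.5% for Hsp90b1 to 80.5% for Trib3. Arm accounted for a median of 2.70% and time for 7.59%. Series and time together accounted for 90.1%, against 69.5% over all probes. The F test on series called 10 of 10 members, and it also called 75.4% of all probes, so a difference between series is not particular to these genes.

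Series D had the highest median for every member. All 10 members were higher in D than in C (limma, series in 1 fit with arm and time), where 28.7% of all probes were called higher. The median difference was 1.00 units for the members and 0.04 for all probes. Trib3 showed the widest gap. Its level ran from 3.30 to 4.31 with a median of 3.79 in D, and the medians were 0.52 in A, 0.30 in B and 0.00 in C. No array of series D overlapped with any of the 40 others, of which the highest read 2.68, and 0.594% of all probes were separated in this way. In processed signal the median was 1751 in D and 97.2 in C. The difference from C was 3.29 ± 0.30 (SE, adjusted p = 5.29e-12, limma).

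The other members of the ATF4 arm followed at smaller distances. Ddit3 ran from 3.36 to 8.28 with a median of 7.20 in D, and its median was 5.05 in C. It was 1.79 ± 0.27 higher in D, and 12 of the 15 arrays of D lay above every other array. Sesn2 had medians of 2.46 in D and 0.75 in C and differed by 1.64 ± 0.22, with no overlap between these series. Series A reached 3.40 for Sesn2, above every array of D. Asns differed by 1.02, Chac1 by 0.88 and Atf4 by 0.61. Atf4 itself was no higher in D than in A or B by the test (0.22 and 0.22, adjusted p = 0.32 and 0.26, limma).

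Among the genes of ER folding and degradation, Herpud1 led with 1.54 ± 0.17, its median being 6.42 in D and 4.82 in C. Hspa5 differed by 0.97 ± 0.10, from a median of 7.81 in C to 8.83 in D. Xbp1 differed by 0.56 and Hsp90b1 by 0.51, and against series B neither passed the test (adjusted p = 0.56 and 0.64, limma). Against series A 8 of 10 members were higher in D and against series B 7 of 10, with backgrounds of 21.7% and 28.9% of probes called higher. Series B and A differed for 0 members (unadjusted p under 0.05 for 0, limma) against 30.4% of probes, and C was lower than A for 3 members against 22% and lower than B for 4 against 14.8%.

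The difference between D and C was also present without stimulation. Over the 17 sham arrays alone, 8 of 10 members were higher in D, against 11.5% of probes, and Trib3 differed by 3.31. The remaining members were Atf4 (0.59, adjusted p = 0.088, limma) and Chac1 (1.02, adjusted p = 0.055, limma). The size of the difference varied with time. Compared at the same time, with 1 array of each of the 3 arms in both series, Trib3 was 3.39 higher in D at 24 h and 1.59 higher at 48 h, and Asns 1.40 and 0.06. All 3 arrays of D lay above all 3 of C for 7 members at 0 h, for all 10 at 2, 8 and 24 h, and for 8 at 48 h, Asns and Xbp1 (0.18) being the exceptions there. At 0 h Hsp90b1, read with the low iTBS array, differed by -0.03. On each of the 3 slides that held arrays of both series, all 10 members were higher in D, Trib3 by 2.37 to 4.06, although the arrays that shared a slide were mostly of different times. With slide as a block 9 of 10 were called, against 26.7% of probes, and Hsp90b1 was not (0.39, adjusted p = 0.090, limma).

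Marker transcripts of several cell types also differed between these series. All 7 oligodendrocyte-lineage markers were lower in D than in C, Mbp by 6.43 units and Pdgfra by 3.41, and the mean level of the 7 ran from 2.30 to 3.85 on the arrays of D and from 5.84 to 6.64 on those of C. Of 7 markers of endothelial, mural and fibroblast cells 4 were higher in D, among them Col1a1 by 3.02 and Col3a1 by 3.87, and 1 was lower, Pdgfrb (-0.68), the mean level running from 1.71 to 2.35 in D and from 0.63 to 1.23 in C. Of 7 astrocyte markers 2 were higher in D, Gfap by 2.04 and Slc1a2 by 0.49, and 3 were lower, Aldh1l1 (-1.75), Sox9 (-0.68) and Slc1a3 (-0.66). The mean of the 7 overlapped between D (5.58 to 6.62) and C (5.89 to 6.30). Of 11 neuronal markers 8 were higher in D, with mean levels of 5.77 to 6.30 against 5.27 to 5.57. Of 6 microglial markers, 2 were higher and 3 lower. The part of these differences in the levels of the stress genes was not tested. In bulk RNA, fewer cells of a type and less RNA per cell cannot be told apart.

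Many other genes of the pathway also differed between D and C, where 28.7% of all probes were higher and 23.7% lower. Of 40 other ATF4 targets, 30 were higher in D and 4 lower, with a median of 0.65. Atf3, a stress-induced transcription factor, differed by 4.34 ± 0.59 and Nupr1, a stress-induced nuclear protein, by 3.12 ± 0.28. Stc2 (3.48) and Adm2 (2.82), both encoding secreted proteins, were well above background on 15 of 15 arrays of D but on 4 and 5 of the 17 of C, so the size of their differences is uncertain. The 4 lower targets were Phgdh (-0.93) and Psat1 (-0.35) of serine synthesis, Gpt2 (-0.70), an alanine aminotransferase, and Ddit4 (-0.37), an mTORC1 inhibitor. Of 28 other genes of ER folding and degradation, 19 were higher and 0 lower, with a median of 0.42. These list counts are for D against C only. By mean level some of the 19 were no higher in D than in A, such as Pdia3 (5.95 in A and 5.75 in D) and Pdia6 (7.80 and 7.61). Others were, such as Dnajb9 (3.18 and 4.06). The furthest were Dnajb9 (1.27), Ero1b (0.94), Derl3 (0.91) and Dnajc3 (0.88), all ER cochaperones, oxidases or degradation factors. Of 16 sensors and eIF2 factors, 6 were higher and 3 lower, near the shares of all probes, with a median of 0.08. Eif2ak3, which encodes PERK, differed by 0.88 and Mbtps2, the site-2 protease that cleaves ATF6, by 0.89. Mean levels in A and D were 3.66 and 4.53 for Eif2ak3 and -0.20 and -0.15 for Mbtps2.

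**Figure D3:**
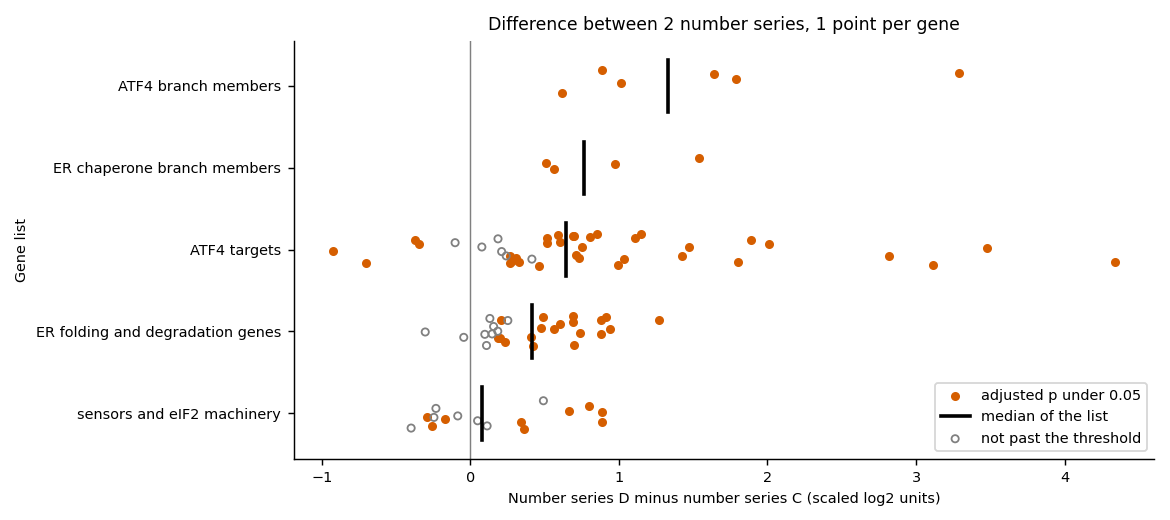
Difference of each gene between number series D and C (scaled log2 units), 1 point per gene and 1 row per gene list (the members in 2 rows, 6 genes of the ATF4 arm and 4 of the ER chaperone arm), with the median of each list as a black bar and filled points where the adjusted p was under 0.05. All members lie above 0, and the medians of the further lists fall from 0.65 (ATF4 targets) through 0.42 (ER folding and degradation) to 0.08 (sensors and eIF2 machinery).

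Against sham the wider lists gave no call: 0 of 84 genes passed in any of the 10 comparisons. Over time, the F test called 3 of the 84, the tryptophanyl-tRNA synthetase gene Wars1 and the ER genes Derl3 and Sdf2l1, a smaller share than the 8.16% of all probes. At 48 h Derl3 was higher by 0.88 and Sdf2l1 by 0.77 than at 0 h, and so were Ddit4 by 0.68 and Eif2ak3 by 0.68. With number series as a block the higher genes at 48 h were 5 of 40 ATF4 targets, led by Fgf21 (1.16), a secreted metabolic hormone, and Nupr1 (1.09), and 5 of 28 genes of ER folding and degradation, among them Creld2 (0.49) and Dnajb9 (0.47). Both counts are near the 13.6% of all probes called higher in this fit. In each list 0 genes were lower, where 13.4% of all probes were.

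The members varied together over the 55 arrays. Pearson's r between 2 members had a median of 0.60 over 45 pairs, from 0.00 for Atf4 and Hsp90b1 to 0.86 for Trib3 and Herpud1. Without the pair of low arrays the median was 0.70, and the lowest value, again for Atf4 and Hsp90b1, was 0.28. These values are descriptions: arrays share series and slides, and the separation of series D enters them. Pairs of other probes are not given beside them, so a median of 0.60 does not set the members apart. Within series C all 45 pairs were above 0 with a median of 0.87 (17 arrays), within D all 45 with a median of 0.47 (15 arrays), and in A and B the medians were 0.19 and 0.12 (11 and 12 arrays). The values of C include its 3 arrays of 48 h, which were above its other arrays for all 10 members. Those of A and of D each include 1 of the low arrays. Once the mean of each series and time was removed, the median fell to 0.15. Pairs that kept a high value were Asns with Herpud1 (0.78), Trib3 with Asns (0.69) and Trib3 with Herpud1 (0.69), and Ddit3 with Hsp90b1 (0.85). For the last, both low arrays lie in these residuals.

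**Figure D4:**
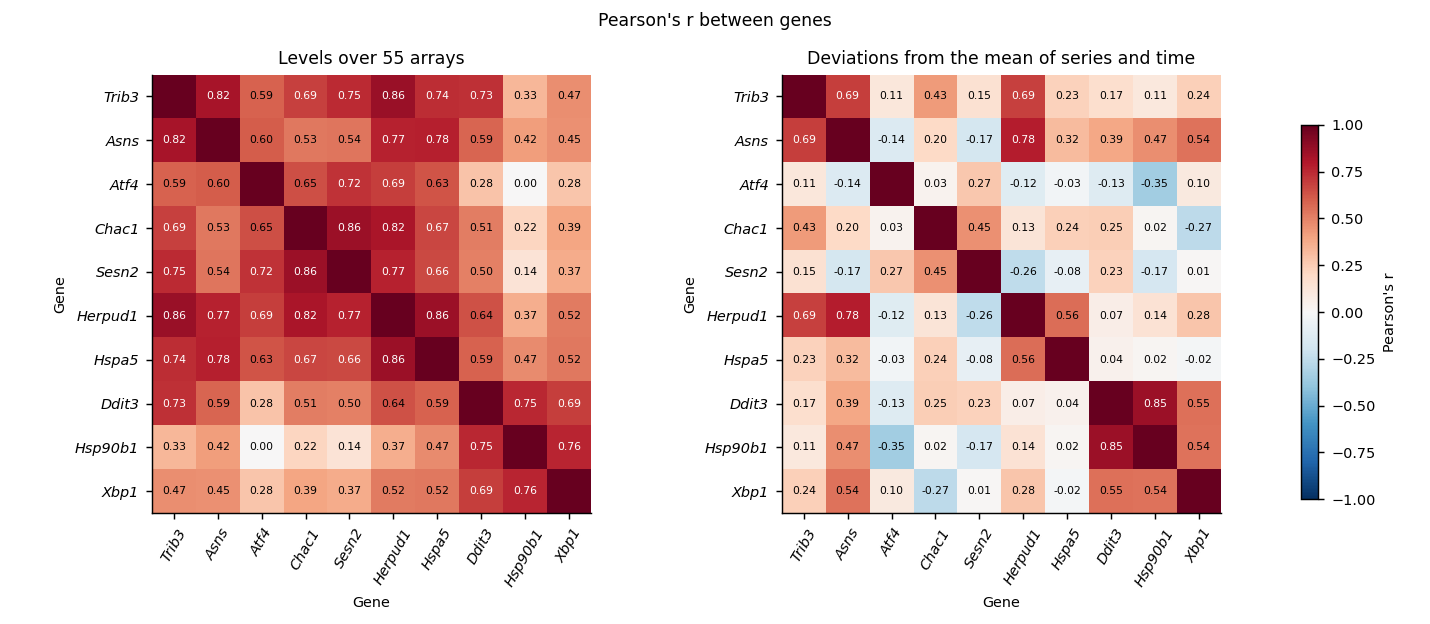
Pearson's r between each pair of the 10 genes over 55 arrays, from the levels (left) and after removal of the mean of each number series and time (right), with red above 0 and blue below. Most pairs are close to or above 0.5 on the left, while on the right the high values are few, such as 0.85 for Ddit3 and Hsp90b1 and 0.78 for Asns and Herpud1.

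The genes whose levels over the 55 arrays were most like those of each member were often other genes of the pathway. Asns was nearest to Eif4ebp1 (r = 0.96), an inhibitor of cap-dependent translation, and Eprs1 (0.92), a tRNA synthetase gene. Trib3 was nearest to Aldh1l2 (0.92), of mitochondrial folate metabolism, and Plekha4 (0.90). Atf4 was nearest to the glycyl-tRNA synthetase gene Gars1 (0.84) and to Atf3 (0.83), and Hspa5 to Eprs1 (0.88) and Dnajc3 (0.86). Chac1 was nearest to Ppp1r15a (0.88), which encodes the stress-induced eIF2 alpha phosphatase subunit GADD34, and to Sesn2 (0.86). Herpud1 was nearest to Atf3 (0.93) and Fosb (0.91), and Sesn2 to Spock2 (0.89) and Egr1 (0.89), where Fosb and Egr1 are immediate-early genes of neuronal activity. Fosb was well above background on all 15 arrays of D, but on 9 of 11 of A, 6 of 12 of B and 6 of 17 of C. Hsp90b1 was nearest to Srpra (0.93), a subunit of the signal recognition particle receptor, and Tgoln2 (0.91). Ddit3 was nearest to Cox6a2 (0.92) and Pheta2 (0.84), the latter well above background on 8 arrays only, all of series D. Xbp1 was nearest to Yipf6 (0.85) and Dnd1 (0.83), and these fell to 0.59 and 0.54 without the pair of low arrays.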

How the data were processed

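Agilent Feature Extraction files of 56 arrays (software 12.0.3.1) gave the processed signal intensity deposited by the authors, who background-corrected it in the scanner software. Their deposited table holds z-scores (score) of log signals, which recomputed z-scores matched within 0.005. Here log2 intensities of the spots of a probe were averaged, scaled within each array as in the study's z-score method and multiplied by the median SD. Of 45598 probes, 420 lacked a value on some array and 9484 passed the scanner's background test on fewer than 3 arrays, which left 35694 for testing. limma 3.58.1 in R 4.3.3 (lmFit and eBayes, two-sided, Benjamini-Hochberg over all tested probes, threshold 0.05) fitted the 16 groups, with 39 residual degrees of freedom, and number series in a fit with the groups. Probes were named through RefSeq accessions (46.3% had a symbol). Scripts were tested on simulated data. Replicate numbers of the titles did not pair the arrays (correlations of same-numbered deviations from -0.46 to 0.78), and those of number series were higher (mean 0.40, against -0.13 between series). The files hold median and not mean spot signals, so normexp was run on medians. The named genes were all members, for each member the 2 genes of highest correlation, and for each list up to 4 called genes of largest change. The 4 ATF4 targets lower in series D, Pdia3, Pdia6 and the marker genes given were named after their values were seen. The members and lists were chosen with earlier results of these data known, and counts over them are descriptions.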

Additional observations from a re-analysis of the deposited data

Results flagged for a closer look

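Of 80 sets of arrays examined for a value far from the others of its group, 5 held one, and chance gives about 1 in 20. The distance to the nearest array, as a share of the group's range, was 0.832 for Chac1 in iTBS at 2 h replicate 3 (4.39, others 2.76 to 3.03), 0.872 for Asns in 1 Hz at 8 h replicate 3 (5.13, others 5.89 to 6.01) and 0.967 for Xbp1 in iTBS at 2 h replicate 2 (5.20, the highest being 6.02). It was 0.906 for Xbp1 and 0.888 for Herpud1 in sham at 0 h replicate 3 (5.47 and 4.82). The first is an array of series A and the other 4 values are arrays of series C.

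The change over time differed between number series for all 10 members, by the limma F test of series by time with its adjusted p, which was chosen after the data had been seen. The adjusted p was 4.93e-08 for Xbp1, 1.90e-07 for Trib3, 1.26e-06 for Chac1, 1.56e-06 for Atf4, 2.75e-06 for Herpud1 and 6.30e-06 for Asns. It was 4.95e-05 for Hspa5, 0.000374 for Sesn2, 0.0048 for Ddit3 and 0.0365 for Hsp90b1. The same test called 39.4% of all probes.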

How the results depend on the processing

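Calls against sham, between protocols and of CTR stayed at 0 under every alternative except with the failed-grid array kept (all 56 arrays, Xbp1 without a value), where 5 members were called against sham, 5 between iTBS and 1 Hz, 6 in place of 10 for series, 17 in place of 32 over the pairs of series, and for the wider lists 60 in place of 0 against sham, 0 in place of 3 over time and 27 in place of 69 for series. Members called at single times against 0 h numbered 1, and 0 under 75th percentile scaling, quantile normalization, normexp, the deposited z-scores, no filter on dim probes and all 56 arrays. With a replicate block by title number they were 2, and 5 list genes changed over time. With a replicate block by number series they were 3, with 2 members and 13 list genes changing over time. With slide as a block 1 member and 0 list genes changed over time. Leaving out single arrays gave 0 to 1 members at single times, 1 to 4 list genes over time, 28 to 37 calls over pairs of series and 9 to 10 members for series by time. The test of series by time, the values of D and C at each time, the fits of sham arrays only, without the pair of low arrays and without the series A sham array were chosen after the data were seen. The tests over time could not be fitted with number series at each time as a block. The array number limits precision, with 2 arrays for 1 Hz at 2 h.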
